A study of Mus musculus with 12 samples.

Results

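The Notch ligands Dll1, Dll4, Jag1 and Jag2, the receptors Notch1 to Notch4 and the target genes Hey1 and Heyl were examined in mouse lung after 3 days of hypoxia. These 10 genes, of 22184 genes with a symbol on the array, were selected by name, and each was represented by its transcript cluster (the probes along 1 transcribed region) with the highest mean over all 12 arrays. Hypoxic mice breathed 10% oxygen at normal pressure in a chamber for 3 days (n=6), and normoxic mice were kept in normoxia at 21% oxygen (n=6). All were C57BL/6J mice, male by the study's methods, with no transgene or further treatment named, and the methods give an age for longer exposures but not for the 3-day exposure. The left lung lobe of each mouse gave RNA that was hybridized to 1 whole-transcript array, and levels are on a log2 scale, on which a difference of 1 is a change of 2-fold. Because whole lung was measured, fewer cells of a type and less RNA per cell cannot be told apart.

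Notch signaling works between touching cells. A ligand of the Delta-like or Jagged family on one cell binds a Notch receptor on its neighbor, the receptor is cut, and its inner part moves to the nucleus, where it joins the DNA-binding protein RBPJ and switches on repressors of the HES and HEY families. In blood vessels, Dll4 and Notch1 act between endothelial cells to set which cell leads a new sprout, Notch4 is mostly endothelial, and Jag1 with Notch3 and Heyl works in the smooth muscle cells and pericytes around the vessel.

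The arrays were similar in overall level, with array medians of 5.89 to 5.92 in hypoxia and 5.89 to 5.95 in normoxia, and each pair of arrays correlated at 0.983 to 0.989. Hypoxia and normoxia separated along the first principal component, which held 17.6% of the variance. Each cluster was tested with limma, with p-values adjusted by the Benjamini-Hochberg method over 41155 clusters, and an adjusted p under 0.05 was taken as a change. By this measure 4.47% of all clusters changed. As markers of lung epithelium, some of them shared by other epithelia, 5 genes were present with a mean level of 10.35 to 10.43 in hypoxia and 10.41 to 10.51 in normoxia. Markers of heart muscle were also present, and their mean level ranged from 7.59 to 9.29 in hypoxia and from 8.03 to 8.99 in normoxia. Of these 5 heart markers 0 passed the test by limma, 0 had an unadjusted p under 0.05, and 0 passed by analysis of variance.

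Hypoxic lungs had less Dll4 and Hey1 and more Jag2 and Notch3. Dll4 stood at 48.5% of its normoxia level (95% interval 43.7 to 53.7%) and Hey1 at 60.9% (53.8 to 68.8%), whereas Jag2 stood at 152% (129 to 180%) and Notch3 at 126% (117 to 137%). These 4 of 10 genes passed the test, while 6.03% of all measured genes did (3.89% rose and 2.14% fell). All 10 lay above the median level of the array, and 9.24% of the genes above that level passed. The median log2 fold change was -0.06 over the 10 genes and -0.01 over all genes. The hypoxia and normoxia arrays did not overlap for 5 of the 10 genes, against 5.70% of all genes. All 4 calls held in each of 12 fits that left out 1 array.

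**Figure D1:**
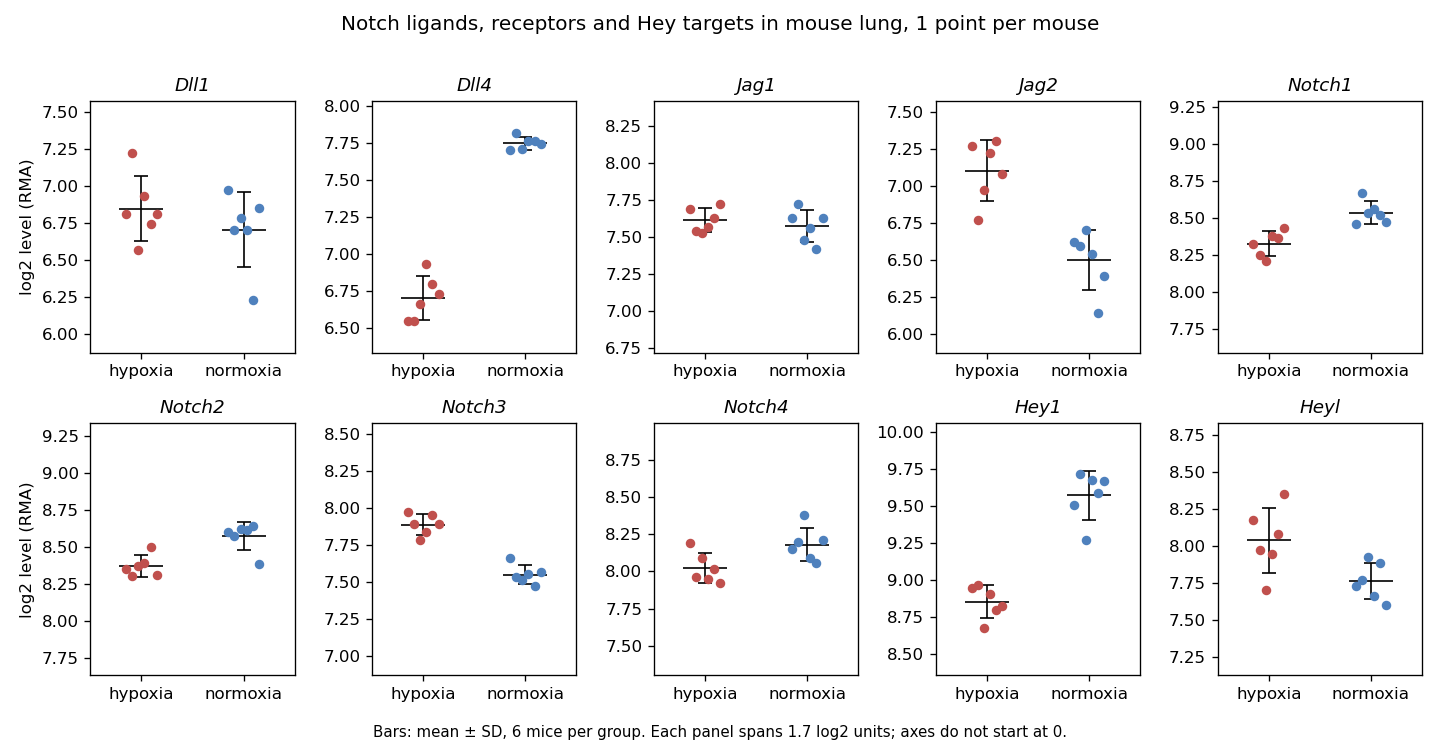
Log2 level of each of the 10 Notch genes on every array, with hypoxia left of normoxia (6 arrays each), points for arrays and horizontal lines for group means. The hypoxia arrays lie wholly below the normoxia arrays for Dll4, Hey1 and Notch1 and wholly above them for Jag2 and Notch3.

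The promoters of the changed genes are shown so that the sequence at their starts can be read beside the values. RefSeq windows of 300 bases (250 before and 50 after the gene start, GRCm38.p6) were found for 8 of the 10 genes, and those of Dll4, Jag2 and Notch3 are given 5′ to 3′ on the gene's own strand. Hey1 and Heyl had no window. Capitals mark ACGTG and GCGTG, the 2 core forms bound by hypoxia-inducible factors, on either strand, so that a match on the opposite strand reads CACGT or CACGC.
Dll4 promoter, chr2:119325534-119325833 (plus strand): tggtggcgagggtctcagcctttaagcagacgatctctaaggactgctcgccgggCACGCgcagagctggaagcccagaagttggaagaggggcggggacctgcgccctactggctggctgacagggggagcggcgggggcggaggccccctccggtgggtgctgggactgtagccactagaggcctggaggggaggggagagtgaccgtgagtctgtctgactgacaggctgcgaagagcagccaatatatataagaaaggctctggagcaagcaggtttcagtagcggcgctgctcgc
Jag2 promoter, chr12:112929446-112929745 (minus strand): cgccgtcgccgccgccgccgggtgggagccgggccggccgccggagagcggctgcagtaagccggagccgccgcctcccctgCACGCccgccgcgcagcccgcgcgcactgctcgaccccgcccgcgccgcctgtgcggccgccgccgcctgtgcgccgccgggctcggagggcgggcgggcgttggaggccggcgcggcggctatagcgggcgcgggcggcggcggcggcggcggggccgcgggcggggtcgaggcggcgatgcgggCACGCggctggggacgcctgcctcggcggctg
Notch3 promoter, chr17:32166841-32167140 (minus strand): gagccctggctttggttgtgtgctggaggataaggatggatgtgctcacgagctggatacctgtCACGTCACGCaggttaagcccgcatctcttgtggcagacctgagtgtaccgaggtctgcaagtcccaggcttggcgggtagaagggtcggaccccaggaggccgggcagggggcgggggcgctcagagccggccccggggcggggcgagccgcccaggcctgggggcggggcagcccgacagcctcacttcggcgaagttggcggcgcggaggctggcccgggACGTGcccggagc
The Dll4 window held 1 such match, at -195 bases from the start, and the Jag2 window held 2, at -168 and 18 bases. The Notch3 window held 3, at -186, -181 and 37 bases, of which the first 2 stand directly next to each other. GCGTG was found in all 8 windowed genes and in 32.4% of 32851 RefSeq windows, and ACGTG only in Notch3 among the 8 and in 19.6% of windows. The windows of the genes examined were rich in G and C, with a median of 63.7%, against 52.7% over all windows. The core TGGGAA of the RBPJ site and the E-box CACGTG, which also holds ACGTG and is the letter pattern of HES and HEY binding, were on neither strand of any of the 8, and in 25.6% and 7.15% of all windows. These matches describe letters in a short window and are not measured binding sites.

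Among the ligands, Dll4, the Delta-like ligand of endothelial cells, had levels of 6.55, 6.55, 6.66, 6.93, 6.80 and 6.73 in the hypoxia arrays and 7.70, 7.82, 7.71, 7.76, 7.76 and 7.74 in the normoxia arrays. Every hypoxia array lay below every normoxia array, and the normoxia arrays lay close together, at 7.75 ± 0.04 (SD, n=6), beside 6.70 ± 0.15 in hypoxia. Its log2 fold change was -1.04 (SE 0.07, limma, adjusted p = 2.8e-06), with a range of -1.09 to -1.01 when each array was left out in turn. It ranked the 7th largest fall of all genes. A separate cluster assigned to both Dll4 and Gm14207, a predicted gene that overlaps Dll4 on the opposite strand, was also lower, at 6.18 ± 0.11 in hypoxia and 6.55 ± 0.10 in normoxia (log2 fold change -0.37, SE 0.07, adjusted p = 0.00641). This cluster cannot be ascribed to either gene and was not counted.

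Jag2, a Jagged ligand, moved the other way. Its levels were 7.27, 6.77, 6.97, 7.22, 7.30 and 7.08 in hypoxia, against 6.62, 6.59, 6.70, 6.54, 6.14 and 6.39 in normoxia. The groups did not overlap, although the lowest hypoxia array stood only just above the highest normoxia array, and the spread was equal (7.10 ± 0.20 in hypoxia and 6.50 ± 0.20 in normoxia, SD, n=6 each). The log2 fold change was 0.60 (SE 0.11, limma, adjusted p = 0.00713), and it lay between 0.53 and 0.67 with each array left out. Jag2 did not pass in a fit with the replicate number as a block, which is given with the processing alternatives.

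The remaining ligands did not pass the test. Jag1, the Jagged ligand of arterial endothelium and smooth muscle, had a lowest, median and highest level of 7.53, 7.60 and 7.72 in hypoxia and 7.42, 7.59 and 7.72 in normoxia. The ranges lay nearly on top of each other, and the log2 fold change of 0.04 had a 95% interval of -0.10 to 0.18 (limma, adjusted p = 0.824). Dll1, a Delta-like ligand of developing tissues and of arterial endothelium, had corresponding levels of 6.57, 6.81 and 7.22 in hypoxia and 6.23, 6.74 and 6.97 in normoxia. Its interval was wider, with a log2 fold change of 0.14 (-0.13 to 0.42, adjusted p = 0.658), and a second Dll1 cluster gave 0.15 (adjusted p = 0.372).

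Of the receptors, Notch3, which is typical of vascular smooth muscle cells and pericytes, was the one that passed the test. Its levels were 7.97, 7.89, 7.78, 7.84, 7.95 and 7.89 in hypoxia, against 7.66, 7.53, 7.51, 7.55, 7.47 and 7.57 in normoxia. All hypoxia arrays were above all normoxia arrays, with little spread in either group (7.89 ± 0.07 in hypoxia and 7.55 ± 0.06 in normoxia, SD, n=6 each). The log2 fold change of 0.34 (SE 0.05, limma, adjusted p = 0.00225) had a smaller standard error than that of Jag2.

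The other receptors had negative log2 fold changes that did not pass the threshold. Notch1, the receptor that answers Dll4 in endothelium, had levels of 8.32, 8.25, 8.21, 8.38, 8.36 and 8.43 in hypoxia and 8.46, 8.67, 8.53, 8.56, 8.52 and 8.47 in normoxia. The groups did not overlap, but the gap was narrow, and the log2 fold change of -0.21 (SE 0.06, limma) had an adjusted p of 0.0555. Without scaling to a marker list, it passed in 4 alternative fits, which are given with the processing alternatives. Notch2, a receptor present in many lung cell types, had a lowest, median and highest level of 8.30, 8.36 and 8.50 in hypoxia and 8.38, 8.61 and 8.64 in normoxia. Only 1 normoxia array, replicate 6, lay within the hypoxia range, and the log2 fold change was -0.20 (SE 0.06, adjusted p = 0.0812). Without that array it was -0.24 (adjusted p = 0.0273), past the threshold. Notch4, the endothelial receptor, had corresponding levels of 7.92, 7.99 and 8.19 in hypoxia and 8.06, 8.18 and 8.38 in normoxia. Here the groups overlapped, with 4 hypoxia arrays below all normoxia arrays, and the log2 fold change was -0.16 (95% interval -0.31 to -0.01, adjusted p = 0.252).

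**Figure D2:**
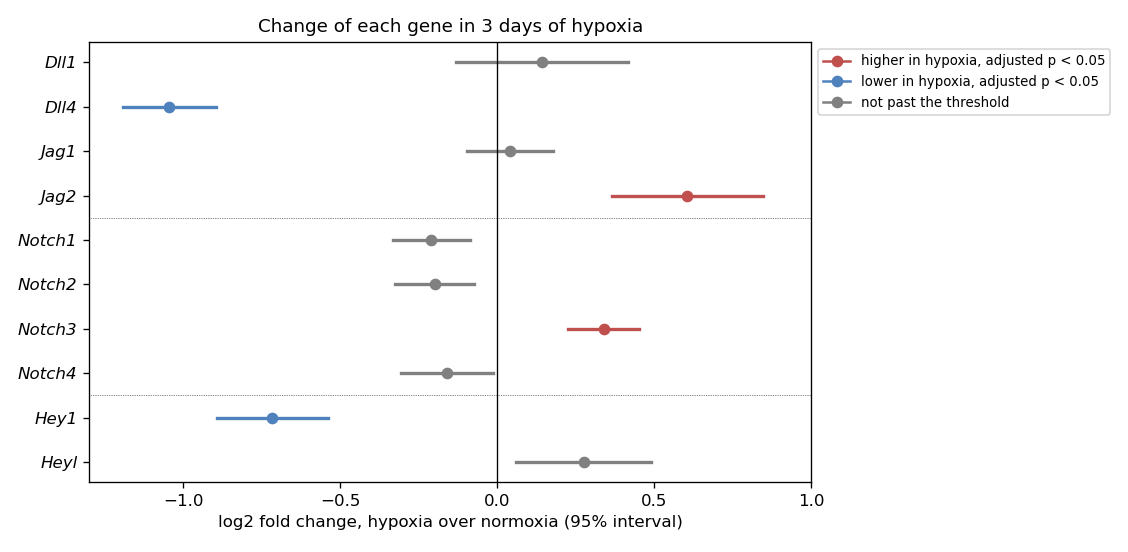
Log2 fold change of each Notch gene, hypoxia over normoxia (x axis), with its 95% interval, unadjusted for the number of tests, and color for genes past the adjusted threshold. Dll4 (-1.04) and Hey1 (-0.72) lie below 0 and Jag2 (0.60) and Notch3 (0.34) above it, while the intervals of Notch1, Notch2, Notch4 and Heyl leave out 0 without passing the adjusted threshold.

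The Hey genes encode transcriptional repressors that Notch switches on directly. Hey1, which is expressed in endothelium among other cells, had levels of 8.95, 8.97, 8.68, 8.91, 8.80 and 8.83 in hypoxia, against 9.51, 9.72, 9.27, 9.68, 9.59 and 9.67 in normoxia. Every hypoxia array was below every normoxia array (8.86 ± 0.11 in hypoxia and 9.57 ± 0.17 in normoxia, SD, n=6 each). The log2 fold change was -0.72 (SE 0.08, limma, adjusted p = 2.32e-04), it lay between -0.78 and -0.68 with each array left out, and it was the 34th largest fall. Heyl, the family member of smooth muscle cells and pericytes, had levels of 8.17, 7.97, 7.70, 7.94, 8.08 and 8.35 in hypoxia and 7.73, 7.77, 7.92, 7.66, 7.88 and 7.60 in normoxia. In hypoxia 5 arrays stood above all normoxia arrays and replicate 3 stood low, and the log2 fold change of 0.28 (SE 0.10) did not pass (adjusted p = 0.169).

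Of the rest of the pathway, 41 genes that modify, cut, transmit or answer the Notch signal were measured. Of these 2 rose, 1 fell and 38 did not pass, and the median log2 fold change was -0.03. Of all genes 6.03% passed, and of genes above the median level 9.24%, so this count was near that of genes at large. Fbxw7, the ubiquitin ligase subunit that marks the active Notch fragment for destruction, rose by 0.29 on the log2 scale (limma, adjusted p = 0.0124), with medians of 7.47 in hypoxia and 7.17 in normoxia. Dtx4, a Deltex ubiquitin ligase, rose by 0.30 (adjusted p = 0.0425), but it passed in only 2 of 12 fits with 1 array left out. Maml3, a coactivator that binds the Notch and RBPJ complex, fell by 0.29 (adjusted p = 0.0270) and passed in 5 of 12 such fits. RBPJ itself had a log2 fold change of 0.21 (adjusted p = 0.210).

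Within the groups of this pathway, 0 of 5 measured genes for receptor glycosylation and 0 of 9 for receptor cleavage passed by limma (1 and 3 had an unadjusted p under 0.05, and 0 of either passed by analysis of variance). Of the glycosylation genes, the Fringe enzymes that tune which ligand a receptor answers had log2 fold changes of -0.03 for Lfng and -0.16 for Mfng (limma, adjusted p = 0.296). The 3 other Delta-like genes measured lay below the median level of the array, with log2 fold changes of -0.08 to -0.04. Of the other Notch targets, 0 of 4 passed by limma, 0 had an unadjusted p under 0.05, and 0 passed by analysis of variance. Hes1, a repressor with many inputs besides Notch, had medians of 8.53 in hypoxia and 8.49 in normoxia and a log2 fold change of -0.01 (SE 0.09). Hey2 had 0.05 (SE 0.10), and Nrarp, a feedback inhibitor of Notch, had -0.01 (SE 0.08). Whether these differ from Hey1 was not tested.

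VEGF signaling is known to raise Dll4 in sprouting endothelium, and BMP receptor signaling through ALK1 is known to act together with Notch on Hey genes, so 11 genes of these inputs were also examined. Of these 2 rose, 4 fell and 5 did not pass, while 3.89% of all genes rose and 2.14% fell. All but 1 of the 11 lay above the median level of the array, and 9.24% of genes above that level passed. The list was chosen with earlier results of these data known, so its count is not independent of them. Eng, the endothelial co-receptor for BMP ligands, had a lowest, median and highest level of 9.70, 9.96 and 9.99 in hypoxia and 10.40, 10.57 and 10.81 in normoxia, with no overlap (log2 fold change -0.68, SE 0.08, limma, adjusted p = 2.14e-04). Smad6, an inhibitory SMAD that BMP signaling induces, had corresponding levels of 8.57, 8.66 and 8.85 in hypoxia and 9.22, 9.39 and 9.47 in normoxia (-0.70, SE 0.06, adjusted p = 4.01e-05). Both were thus lower in every hypoxia array than in any normoxia array. Bmpr2, the type II BMP receptor, fell by 0.40 (adjusted p = 0.00132). Nrp1, a VEGF co-receptor, fell by 0.19 (adjusted p = 0.0477), which passed in only 1 of 12 fits with 1 array left out. Smad7, the inhibitory SMAD of TGF-β signaling, rose by 0.32 (adjusted p = 0.0242, 10 of 12 fits), and Flt1, a VEGF receptor that binds VEGF with little signaling, rose by 0.28 (adjusted p = 0.0258, 9 of 12 fits). The 5 that did not pass, named after their values were seen, were Acvrl1, which encodes ALK1 (-0.16, adjusted p = 0.176), its ligand Gdf2 (-0.10, adjusted p = 0.670), the BMP target Id1 (0.01, adjusted p = 0.967), Vegfa (-0.15, adjusted p = 0.127) and the VEGF receptor Flt4 (-0.02, adjusted p = 0.923). Whether the changes in these inputs bear on Dll4 or Hey1 was not tested. With these inputs, 52 further pathway genes were measured, of which 4 rose, 5 fell and 43 did not pass, beside 6.03% of all genes that passed.

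**Figure D3:**
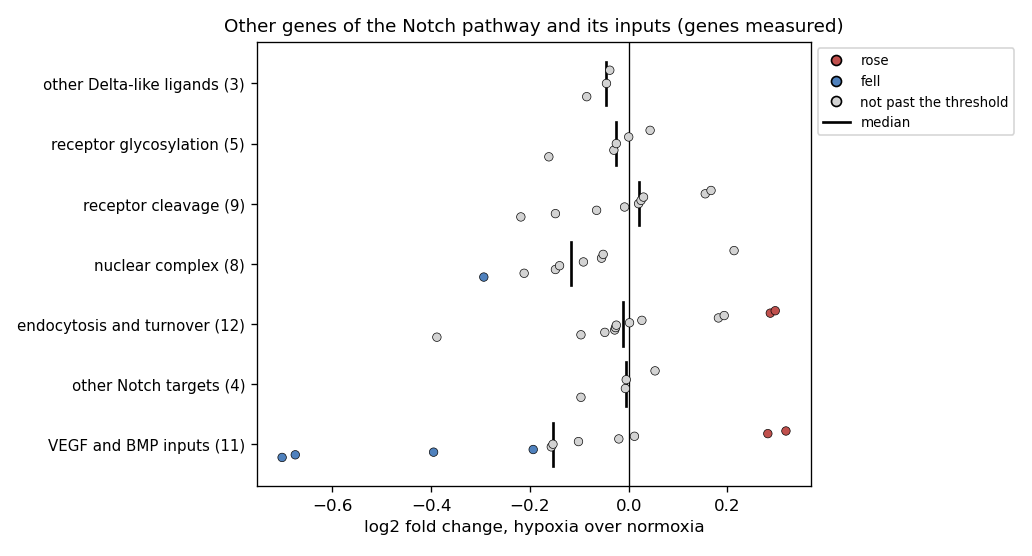
Log2 fold change, hypoxia over normoxia (x axis), of the 52 other genes of the Notch pathway and its VEGF and BMP inputs, in rows by role, with points for genes, color for those past the threshold and a black bar for the median of each row. The inputs hold the lowest values, for Smad6 (-0.70) and Eng (-0.68), while the glycosylation, cleavage and other target genes hold no colored point.

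Since Dll4 and Notch1 act between endothelial cells and Notch4 is mostly endothelial, the markers of endothelial cells were examined beside them. Of 12 markers shared by endothelial cells, 3 fell and 1 rose, and the median log2 fold change was -0.10. The mean level over these 12 markers was 9.61 to 9.72 in hypoxia and 9.72 to 9.90 in normoxia, a difference of -0.12 between the group means. Kdr, the main VEGF receptor, fell by 0.39 (limma, adjusted p = 0.00403). The calls of Erg (-0.26) and Tek (-0.27), which fell, and Emcn (0.31), which rose, each held in only 2 of 12 fits with 1 array left out. Beside the endothelial difference of -0.12, the log2 fold change of Dll4 was -1.04. Whether these markers follow the number of cells that hold Dll4 was not tested.

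Of 8 markers of lung capillary endothelium, 5 fell, 1 rose and 2 did not pass, with a median of -0.74, and their mean level was 7.96 to 8.12 in hypoxia and 8.48 to 8.70 in normoxia, without overlap. Plvap, which encodes the plasmalemma vesicle associated protein, had a log2 fold change of -1.21 (limma, adjusted p = 8.72e-07). Ednrb, the endothelin B receptor, had -0.84 (adjusted p = 3.98e-05) and Aplnr, the apelin receptor, -0.89 (adjusted p = 5.79e-04). Cd300lg, a capillary surface protein, had -0.99 (adjusted p = 7.03e-04). Apln, the ligand apelin, was the one that rose (0.49, adjusted p = 0.0188), and Gpihbp1 (-0.06) and Car4 (-0.22) did not pass. Of 6 genes typical of tip cells, which lead a sprout and are rich in Dll4, Cxcr4 (-0.75, adjusted p = 2.9e-04) and Esm1 (-0.82, adjusted p = 0.0160) fell and Pdgfb rose (0.29, adjusted p = 0.0355, past the threshold in 3 of 12 fits), while Adm (0.44), Angpt2 (-0.05) and Plaur (-0.15) did not pass. The markers that did not pass, and Apln, were named after their values were seen. The falls in Dll4 and Hey1 thus stood beside falls in 5 of 8 capillary markers and 2 of 6 tip cell genes, and the part of these cells in the result was not tested.

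Arterial endothelium, in which Notch signaling is strong, showed both directions. Of 8 arterial markers 2 rose, 2 fell and 4 did not pass, and their median log2 fold change was 0.09. Efnb2, an arterial ephrin that Notch is known to induce, fell by 0.83 on the log2 scale, with a lowest, median and highest level of 8.79, 8.95 and 9.06 in hypoxia and 9.61, 9.76 and 10.02 in normoxia (limma, adjusted p = 3.05e-05). Sema3g, an arterial semaphorin, fell by 0.37 (adjusted p = 2.67e-04). Sox17, an arterial transcription factor, rose by 0.53 (adjusted p = 0.00286), and Unc5b, a netrin receptor of arteries and tip cells, rose by 0.57 (adjusted p = 0.00352). Of 4 venous markers 0 passed by limma, 2 had an unadjusted p under 0.05, and 0 passed by analysis of variance.

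Markers of the cells around vessels, in which Notch3 and Heyl are typical, were higher in hypoxia. Of 9 pericyte markers 4 rose and 5 did not pass, with a median of 0.32 on the log2 scale and a mean level of 8.11 to 8.29 in hypoxia and 7.64 to 7.90 in normoxia, without overlap. The 4 were Higd1b (1.19, adjusted p = 3.38e-07), Cspg4 (0.72, adjusted p = 6.92e-04), Trpc6 (0.51, adjusted p = 0.00274) and Ndufa4l2 (0.60, adjusted p = 0.00530). The 5 that did not pass, named after their values were seen, were Pdgfrb (0.14), Rgs5 (0.175), Abcc9 (0.18), Kcnj8 (0.325) and Cox4i2 (0.23). Of 8 smooth muscle markers 7 rose, with a median of 0.68 and a mean level of 9.10 to 9.46 in hypoxia and 8.44 to 8.76 in normoxia. The muscle cytoskeleton genes Acta2 (1.24), Tagln (1.11), Actg2 (0.99) and Des (0.68) were among them. The rise in Notch3 thus stood beside rises in pericyte and smooth muscle markers whose medians were close to or above its own, and the part of these cells in the result was not tested.

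**Figure D4:**
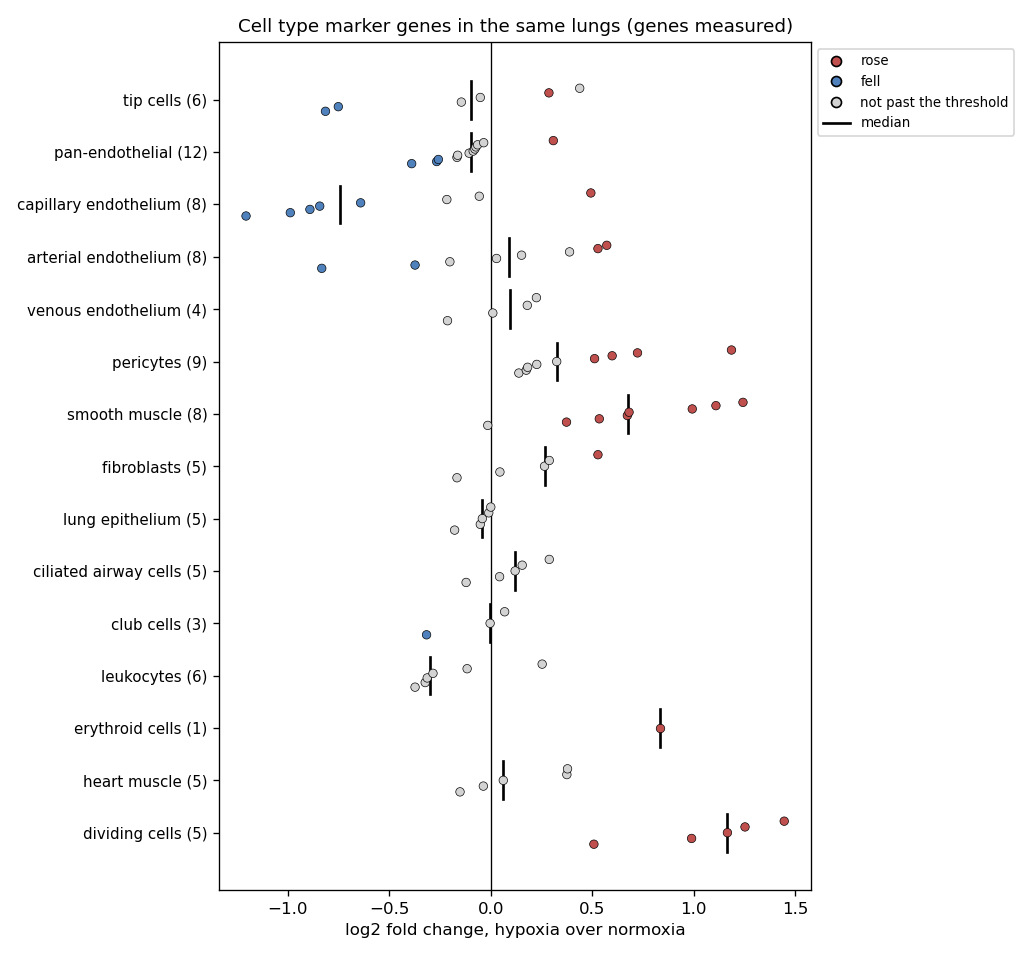
Log2 fold change, hypoxia over normoxia (x axis), of marker genes for cell types of the lung, in rows by cell type, with points for genes, color for those past the threshold and a black bar for the median of each row. Capillary markers have a median of -0.74, whereas pericyte and smooth muscle markers have medians of 0.32 and 0.68.

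The lists of other cell types held few changes, apart from dividing cells. Of 5 epithelial markers 0 passed by limma (1 had an unadjusted p under 0.05, and 1 passed by analysis of variance), and of 6 leukocyte markers 0 passed (3 and 0). The leukocyte markers had a median log2 fold change of -0.30, with 5 of the 6 below 0. Of 5 markers of ciliated airway cells 0 passed (1 and 0). Of 3 club cell markers, Cyp2f2 fell by 0.32 (adjusted p = 0.0275, 5 of 12 fits), and of 5 fibroblast markers, Pi16 rose by 0.53 (adjusted p = 0.0125). The erythroid marker measured, Slc4a1, rose by 0.83 (adjusted p = 0.0334, 4 of 12 fits). All 5 measured markers of dividing cells rose, with Top2a at 1.45 as the highest.

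To read the Notch genes against a cell type rather than against the whole array, each array was set relative to its own mean over a marker list. This moves every fold change by the same amount, so the order of the genes stays, and it rests on the markers themselves having a steady level per cell, which was not tested. Relative to the 12 endothelial markers every log2 fold change moved by 0.12. Dll4 was then at -0.93 and Hey1 at -0.60, Jag2 at 0.72, Notch3 at 0.45 and Heyl at 0.39 (limma, adjusted p = 0.0220). These 5 genes passed, while 8.55% of all clusters did, and Notch1 was at -0.09 (adjusted p = 0.260).

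Relative to the 8 capillary markers, a scaling chosen after the data were seen, every log2 fold change moved by 0.54 and 90.5% of all clusters passed. Dll4 was the one gene of the 10 that remained lower past the threshold, at -0.50 (SE 0.07, adjusted p = 3.19e-05), and Hey1 was at -0.17 (adjusted p = 0.0580). Notch1, Notch2 and Notch4 changed sign, to 0.33, 0.34 and 0.38. The 9 pericyte markers had log2 fold changes from 0.14 (Pdgfrb) to 1.19 (Higd1b), so the shift depends on which are listed. Relative to their mean, every log2 fold change moved by -0.45 and 86.6% of all clusters passed. Notch3 then changed sign, to -0.11 (adjusted p = 0.164), as did Heyl at -0.18 (adjusted p = 0.0973), and Jag2 was at 0.15 (adjusted p = 0.169). Since each scaling adds 1 constant to all genes, the size of a gene's measured fold change sets whether its sign turns.

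**Figure D5:**
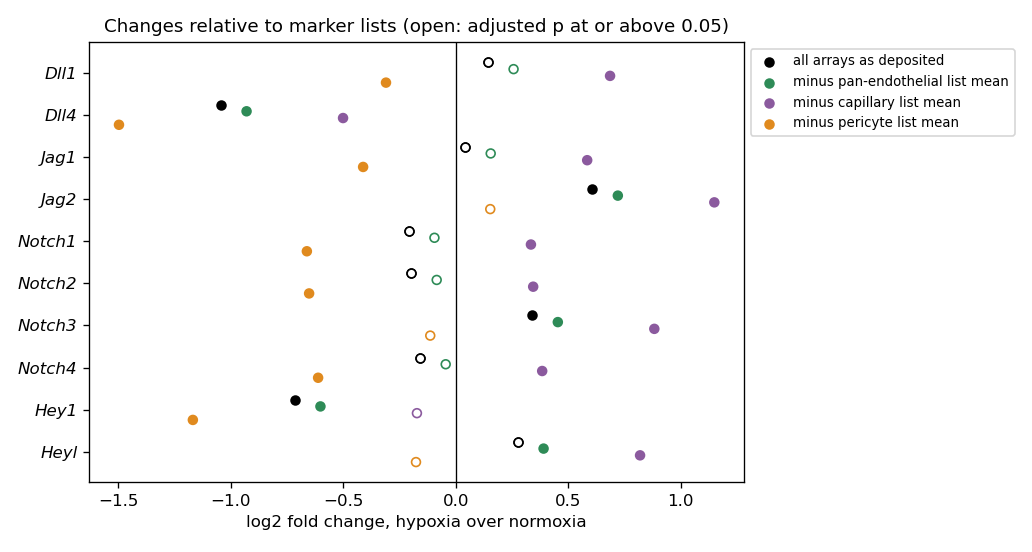
Log2 fold change of each Notch gene, hypoxia over normoxia (x axis), as measured and relative to the mean of the endothelial, capillary or pericyte marker list of the same array (filled points passed the adjusted threshold, open points did not). Each list moves all 10 genes by the same constant (0.12, 0.54 and -0.45), so that Dll4 is at -1.04, -0.93, -0.50 and -1.50 and Notch3 at 0.34, 0.45, 0.88 and -0.11.

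Variation between mice of the same group was followed by removing each group's mean and correlating genes over the 12 arrays, as a description with no test. The arrays share their processing, and each gene was set against 11613 others. Among the 10 Notch genes, the 45 pairs had correlations of -0.45 to 0.60 with a median of 0.19, and 30 pairs were above 0. The highest were Jag1 with Notch3 at 0.60, Dll4 with Notch1 at 0.58, Notch1 with Heyl at 0.57 and Dll1 with Notch3 at 0.53. The lowest was Notch4 with Hey1 at -0.45. Of all genes above the median level, those most like Dll4 were Otulinl (0.94), Gnptg (0.89) and Foxf1 (0.88). Those most like Hey1 were Mafa (0.91), Nhlrc3 (0.90) and Acsf3 (0.89). For Notch3 they were Kcnk4, Dohh and Faah (each 0.84), and for Jag2 they were C87436, Crebbp and Vars2 (each 0.90). For the other Notch genes, the highest correlation lay between 0.90 (Notch2 with Il12rb2) and 0.93 (Notch1 with Il6ra).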

How the data were processed

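Lung RNA of 12 mice (left lobe, 6 in hypoxia and 6 in normoxia) was measured on Mouse Gene 2.0 ST arrays, 1 per mouse. The deposited values are log2 levels that the authors made with RMA in Affymetrix Expression Console, which corrects background, normalizes the arrays and summarizes probes. Versions: not given in the sources used here. Of 41345 rows, 190 controls were left out. Of 41155 clusters, 23525 carry 1 symbol, 1816 several and 15814 none here. Symbols were updated through gene IDs with a RefSeq table (GRCm38.p6), which was used for names and neighbors. Precision is limited by the number of arrays.

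The groups were compared with limma 3.58.1 (lmFit, eBayes) in R 4.3.3, two-sided, without a filter or minimum fold. The code was tested on simulated data. Genes named are the 10 Notch genes, pathway genes past the threshold, Hes1, Hey2, Nrarp, Rbpj, Lfng and Mfng, at most 4 markers past the threshold per list by smallest p, and the 3 genes most correlated with a Notch gene. These genes and lists were chosen with earlier results of these data known. Some items are not reported here. The alternatives were an analysis of variance, which the methods name, a trend, array weights, quantile normalization, a filter on dim clusters, a replicate block, leave-one-out fits, scaling to marker lists, a threshold of 0.01, and the mean of a gene's clusters. Promoters and plots used Python 3.11.15, numpy 2.4.6, pandas 2.3.3 and matplotlib 3.10.9.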

Additional observations from a re-analysis of the deposited data

Results flagged for a closer look

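The 20 sets of 6 values (10 genes in hypoxia and in normoxia) were searched for a single distant array with Dixon's test, and 2 were found. By chance about 1 in 20 sets is found. For Dll1, normoxia replicate 5 lay lowest at 6.23, where the nearest array was at 6.70 and the highest at 6.97. For Notch2, normoxia replicate 6 lay lowest at 8.38, where the nearest was at 8.57 and the highest at 8.64. Without that array Notch2 passed the test, at -0.24 (limma, adjusted p = 0.0273).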

How the results depend on the processing

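Of the refitted fold changes of the 10 Notch genes, 205 kept their direction and side of the threshold, 15 became significant, 3 lost significance and 7 reversed, all 7 under scaling to a marker list. Of the 205, 119 came from leave-one-out fits, which share most of their arrays. Under the analysis of variance, trend, filter, replicate block and 0.01 threshold the fold change stays the same by construction. There only the side of the threshold could change. Without scaling to a marker list, Notch1 passed with an analysis of variance (adjusted p = 0.0293), a mean-variance trend in limma (0.0268), quantile normalization (0.0434) and only clusters above the median level (0.0203), and Notch2 with the first, second and last of these (0.0482, 0.0423 and 0.0317). Leaving out each array gave 1374 to 1577 clusters, 4 to 5 Notch genes and 5 to 9 further pathway genes past the threshold, beside 1840, 4 and 9 in the fit of all arrays. With only clusters above the median level, which tests fewer clusters, 14 pathway genes passed. At an adjusted p under 0.01, 800 clusters, all 4 Notch genes and 3 pathway genes passed. Relative to the endothelial list 3518 clusters passed. Relative to the pericyte list 35652 clusters, 7 Notch genes and 48 pathway genes passed, and Dll1 (-0.31), Jag1 (-0.41), Notch3 (-0.11) and Heyl (-0.18) reversed. Relative to the capillary list, chosen after the data were seen, 37243 clusters, 9 Notch genes and 50 pathway genes passed, and Notch1 (0.33), Notch2 (0.34) and Notch4 (0.38) reversed. The cause of these shifts is the scaling itself, which adds 1 constant per list.

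Replicate numbers are shared by the groups, but arrays of the same number did not deviate together (correlations -0.01 to 0.07, 1 of 6 hypoxia arrays closest to its own number). These correlations give no sign of a shared effect, but they cannot show whether the mice were matched by number. With the replicate block, 961 clusters, 3 Notch genes and 3 pathway genes passed, and Jag2 had an adjusted p of 0.0550.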
